A study of Mus musculus with 22 samples.

Results

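The genes of DNA replication and of the G1/S transition were described as a set of 41 named genes in cultured mouse cortical neural stem cells (NSCs). The set was chosen by function, with earlier results of these data known. Of the 41, 40 were among the 22623 genes of the RNA-Seq files and all 41 among the 23081 genes of the Ribo-Seq tables, and Pole, the catalytic subunit of DNA polymerase epsilon, was read in footprints only. They were grouped by role into origin licensing (6 genes), the replicative helicase and its partners (10), polymerases and the fork (14), nucleotide synthesis (3), chromatin assembly (3), and cyclins with E2F1 (5).

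The study held 14 RNA-Seq and 8 Ribo-Seq libraries of NSCs from 129SvJae mouse cortex, grown with EGF and bFGF in N2 medium on laminin. KH2 cells carry the reverse tetracycline transactivator m2rTTA in the Rosa26 locus and no Msi cDNA, while tetO-Msi1 and tetO-Msi2 cells also carry Msi1 or Msi2 under a tet operator in the Col1A1 locus, and these 3 are called the tet lines below. They were left untreated or given doxycycline (Dox, 1 µg/ml for 72 h) at embryonic day E12.5, and at E13.5 KH2 without Dox and tetO-Msi1 with and without Dox were sequenced. C1 and C4 cells, called the floxed lines below, are both floxed at Msi1 and Msi2 and come from E12.5. C4 carries a tamoxifen-inducible Cre (CreER) and C1 carries none, and each was left untreated or given 4-hydroxytamoxifen (4-OHT) for 48 h. The Dox-driven allele depends on a broadly active locus and not on a stem cell promoter, and each line is a culture sequenced once per condition. At E13.5 the untreated tetO-Msi1 culture was sequenced again as a technical replicate. Over 13207 genes the counts of that pair differed by 1.67 (chi-square over its degrees of freedom), where KH2 and tetO-Msi1 without Dox at E12.5 differed by 10.9, and the pair was used as 1 library. No condition therefore had a biological replicate. The edgeR tests below used lines or stages as repeats, so their p-values measure the spread between these cultures only.

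Before a cell copies its DNA, the origin recognition complex with CDC6 and CDT1 loads the MCM2-7 helicase on chromatin, and geminin (Gmnn) later keeps CDT1 from loading it again. D-type and E-type cyclins with their kinases phosphorylate the RB proteins, which frees E2F factors to drive transcription of many of these same genes late in G1. In the embryonic cortex the length of G1 changes as stem cells move from expansion to neuron production, and this set is commonly read as a measure of proliferation.

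The count of reads on genes was 7889966 to 58435172 per RNA-Seq library and 657288 to 6381242 per Ribo-Seq library. Levels across libraries are given as scaled RPKM, the RPKM computed from the counts with TMM scaling over 13 libraries, because the deposited RPKM values were set on different totals. Counted reads were 14.9% to 15.8% of the reads behind RPKM in the tet libraries of E12.5 and 28.2% to 34.1% in the others. The transgenes read as labelled: Msi1 went from a level of 128.9 to 701 with Dox in tetO-Msi1 cells at E12.5, Msi2 from 153 to 824 in tetO-Msi2 cells, and Msi2 from 123.5 to 13.54 in C4 cells with 4-OHT. Msi1 in C4 cells was 29.6 without and 28.1 with 4-OHT, so the library labelled as treated C4 showed no fall of Msi1 mRNA. The 9 neural stem markers measured summed to 13476 to 18343 in all libraries, the 9 neuron markers to 101.6 to 321, the 8 astrocyte and oligodendrocyte markers to 1971 to 3812, and the 8 mesenchyme, vessel and microglia markers to 0.842 to 4.98.

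The promoters of the set carried the letters of an E2F site more often than the promoters of all genes. Promoter windows of 300 bases, 250 before and 50 after a start site, were found in RefSeq (GRCm38.p6) for 32 of the 41 genes. The letters TTTCCCGC, TTTCGCGC, TTTGCCGC or TTTGGCGC were searched on both strands, where neighbouring matches may overlap. They occurred in 11 of the 32 genes (34.4%), in 704 of 27025 genes overall (2.605%) and in 1 of 16 mitosis genes (6.25%). Related lists held them as often or more often, at 11 of 32 other replication genes (34.4%) and 8 of 17 other G1/S regulators (47.1%). The 11 genes were Orc1, Cdc6, Cdt1, Mcm3, Mcm5, Mcm6, Mcm7, Rfc3, Pola1, Lig1 and Uhrf1. The letters CCAAT were in 65.6% of the set, 41.1% of all genes, 87.5% of the mitosis genes and 66.7% of the CDK inhibitors, and TTTGAA, the core of the cell cycle homology region known from mitosis promoters, in 9.38% against 20.2% of all genes and 68.8% of the mitosis genes. These are matches of letters, not measured binding. The windows of 2 helicase genes and 2 licensing genes are shown as examples of these matches, as the 250 bases before the start site, 5′ to 3′ on the gene's strand, with E2F matches in capitals. Mcm5 is at chr8:75109259-75109508 (plus strand), Mcm6 at chr1:128359706-128359955 (minus), Cdc6 at chr11:98907901-98908150 (plus) and Orc1 at chr4:108579204-108579453 (plus).
Mcm5: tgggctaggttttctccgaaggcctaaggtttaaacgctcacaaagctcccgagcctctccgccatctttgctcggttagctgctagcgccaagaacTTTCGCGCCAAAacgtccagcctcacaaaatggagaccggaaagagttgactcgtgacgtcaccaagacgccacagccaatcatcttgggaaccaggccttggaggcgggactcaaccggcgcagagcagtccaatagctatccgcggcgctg
Mcm6: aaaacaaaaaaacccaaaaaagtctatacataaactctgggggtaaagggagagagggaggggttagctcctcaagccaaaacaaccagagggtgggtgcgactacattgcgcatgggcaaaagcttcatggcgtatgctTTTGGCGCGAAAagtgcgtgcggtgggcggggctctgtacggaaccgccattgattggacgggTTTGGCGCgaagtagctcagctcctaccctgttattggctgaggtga
Cdc6: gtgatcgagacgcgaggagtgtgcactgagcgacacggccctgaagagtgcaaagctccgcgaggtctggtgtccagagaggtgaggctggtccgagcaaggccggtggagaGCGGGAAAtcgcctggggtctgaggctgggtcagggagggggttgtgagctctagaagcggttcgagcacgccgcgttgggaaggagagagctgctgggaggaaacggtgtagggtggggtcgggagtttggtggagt
Orc1: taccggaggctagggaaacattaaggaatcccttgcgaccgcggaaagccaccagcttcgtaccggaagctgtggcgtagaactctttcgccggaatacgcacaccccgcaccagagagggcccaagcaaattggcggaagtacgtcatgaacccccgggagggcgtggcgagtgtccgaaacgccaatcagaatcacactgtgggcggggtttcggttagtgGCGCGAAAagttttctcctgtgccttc
Counted back from the start site, the first base of the matches lay at -153 and -149 in Mcm5 (overlapping), at -110, -106 and -47 in Mcm6, at -138 in Cdc6 and at -27 in Orc1.

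By summed level the set was lowest in the tet lines of E12.5 and higher in both the E13.5 libraries and the floxed lines. The summed level of the 40 genes was 2245 to 3030 in the 6 tet libraries of E12.5, 5116 to 5449 in the 3 of E13.5, 4307 and 4919 in untreated C4 and C1 cells, and 6272 and 6052 in the same lines with 4-OHT. The median level of the 40 genes was 39.9 to 57.2 in the tet libraries of E12.5 and 86.7 to 95.1 in those of E13.5. In C4 and C1 cells it was 59.1 and 68.8 without and 88.0 and 83.5 with 4-OHT, so untreated floxed cells lay near the tet range. Ccnd1 and Ccnd2 had levels of 1172 and 495 in untreated C1 cells and 131 and 143 in untreated KH2 cells of E12.5. The highest single levels belonged to Ccnd1, cyclin D1, which reached 1272 in C1 cells with 4-OHT. The lowest belonged to Orc1, the large subunit of the origin recognition complex, at 2.58 in tetO-Msi2 cells with Dox. Rfc5, a subunit of the clamp loader, had only 9 to 155 reads because its counted length was 47 nt, and Cdc45 and Rfc4 were counted over 84 and 130 nt, so values of these 3 are the least precise.

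**Figure D1:**
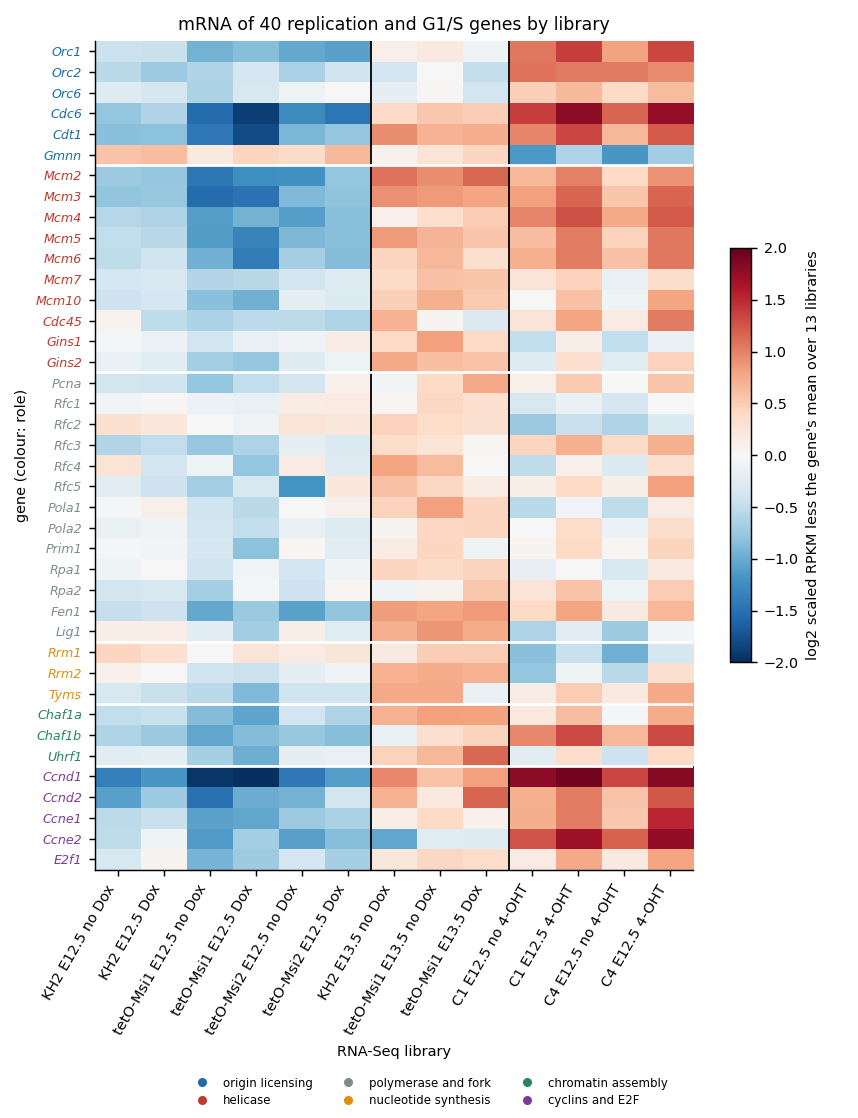
Level of each of the 40 genes (rows, coloured by role) in each of the 13 RNA-Seq libraries (columns), as log2 scaled RPKM less the gene's mean, from blue (low) to red (high). The tet libraries of E12.5 are mostly blue, with Gmnn, Rrm1 and Rfc2 among the exceptions, and Ccnd1, Cdc6 and Ccne2 are deepest red in the floxed lines.

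The mitosis genes did not follow the same order across libraries. The summed level of the replication and G1/S genes was 0.552 to 0.725 times that of 20 mitosis genes in the tet lines of E12.5, 1.26 to 1.46 times at E13.5, and 4.82 to 6.99 times in the floxed lines. The mitosis genes summed to 3581 to 4969 in the tet libraries of E12.5 and to 616 to 1300 in the floxed libraries. The ranges of the floxed and tet lines did not overlap for the mitosis genes, nor for the CDK inhibitors, at 395 to 538 against 1293 to 1605.

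**Figure D2:**
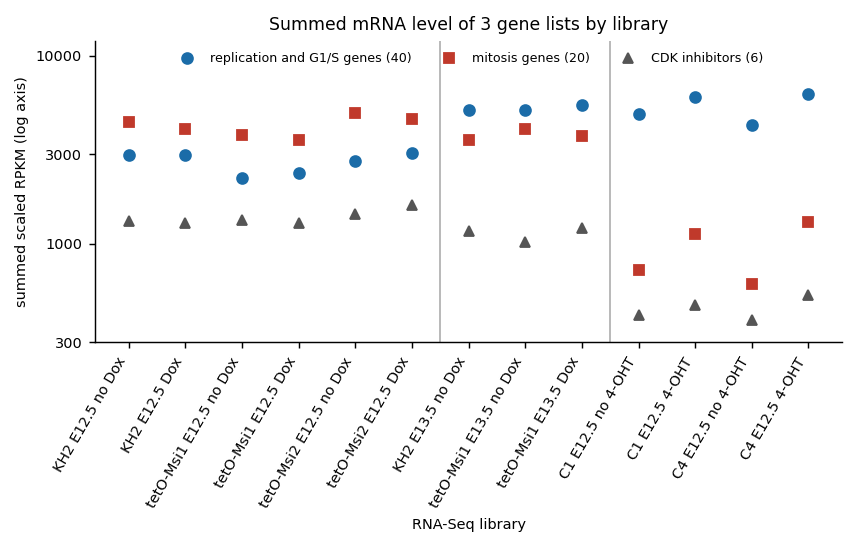
Summed scaled RPKM (log axis) of the replication and G1/S genes (circles), 20 mitosis genes (squares) and 6 CDK inhibitors (triangles) in each RNA-Seq library, 1 point per library. Mitosis genes stand above the replication genes in all 6 tet libraries of E12.5 and below them in all the others.

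The first comparison asked how untreated NSCs of E13.5 differ from those of E12.5, with KH2 and tetO-Msi1 as repeats. Of the 40 genes, 32 were higher at E13.5 and 0 lower in edgeR's quasi-likelihood test with line as a block (adjusted p under 0.05). Of all genes tested, 25.6% were called higher, and 2999 of 11893 were called lower. The median log2 change of the 40 genes was 0.92, and that of all genes 0.01. DESeq2 called 28 higher and 0 lower, beside 2259 and 2314 of all 11893 genes. In edgeR 36 of the 40 had an unadjusted p under 0.05, beside 6808 of all 11893 genes.

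Ccnd1, which couples growth factor signals to G1 progress (chr7:152115836-152125774 in mm9), had at E12.5 a level of 131 in KH2 and 87.8 in tetO-Msi1 cells, and at E13.5 of 657 and 503. It rose most, with a log2 change of 2.40 ± 0.11 (SE, edgeR adjusted p = 1.0e-07). Ccnd2, cyclin D2 (chr6:127075797-127101066), went from 143 and 107.7 to 491 and 346, a log2 change of 1.71 ± 0.11. Both cyclins were more than 2-fold higher at E13.5 in both lines. Mcm2, a subunit of the helicase (chr6:88833469-88848774), rose from 56.4 and 34.4 to 199 and 179, a log2 change of 2.08 ± 0.14 (edgeR adjusted p = 1.2e-06). Mcm3, another subunit, rose by 2.03 ± 0.15 and Cdt1 by 1.93 ± 0.13 on the log2 scale. Among the other genes that the rule allows by name, Cdc6 rose by 1.61 ± 0.22, Mcm5 by 1.55 ± 0.13, Ccne1 by 1.05 ± 0.20, E2f1 by 0.94 ± 0.20 and Pcna, the sliding clamp, by 0.73 ± 0.17. The helicase genes led by group, with 9 of 10 higher and a median of 1.14, and all 3 chromatin assembly genes and 4 of 5 cyclin and E2F genes were higher.

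The 8 genes not called were Orc6, Gmnn, Cdc45, Rfc1, Rfc2, Rfc5, Rrm1 and Ccne2. Gmnn had levels of 126 and 97.7 at E12.5 and 90.3 and 103.4 at E13.5 (log2 change -0.21 ± 0.15, edgeR adjusted p = 0.25), so its libraries overlapped. Ccne2, cyclin E2, was 15.5 and 10.1 at E12.5 and 10.8 and 18.8 at E13.5 (0.20 ± 0.29, edgeR adjusted p = 0.60), with the lines moving in opposite directions. In the wider lists, 22 of 35 other replication genes were higher and 4 lower, led by Dscc1 at 1.60 and Recql4 at 1.57, while Pold4 fell by 0.99 on the log2 scale. Of 20 mitosis genes 2 were higher, Mybl2 (1.42) and Foxm1 (0.46), both transcription factors. Another 5 were lower, beside 2999 of all 11893 genes tested. Of the 6 CDK inhibitors measured, 3 were lower, Cdkn1c (-0.79), Cdkn1b (-0.68) and Cdkn2b (-0.62). Of 21 other G1/S regulators 10 were higher, led by Cdk6 (2.58) and Myc (1.46), and 3 lower, Rbl2, Rb1 (-0.72) and E2f5 (-0.60). Markers of cell type moved with stage as well. Of 8 glia markers 3 were higher and 2 lower, and Gfap, an astrocyte filament, went from 5.88 and 5.39 to 59.998 and 92.8 in KH2 and tetO-Msi1 cells. Of 9 neural stem markers 2 were higher and 3 lower, and of 5 neuron markers tested 1 was higher, Gap43. Their part in the result was not tested. Stage cannot be told apart from a difference in the libraries themselves. Counted reads were 14.9% to 15.8% of those behind RPKM at E12.5 in these lines and 28.2% to 32.0% at E13.5.

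The second comparison set the untreated floxed lines against the 3 untreated tet lines at the same stage, E12.5. The KH2 and tetO-Msi1 libraries without Dox at E12.5 also serve as controls in the comparison of stages. In edgeR's quasi-likelihood test 23 of the 40 genes were higher in the floxed lines, where 33.0% of all genes tested were called higher, and 7 were lower, against 33.3% of all genes. The median log2 change was 0.62. Without C1 or without C4 a single floxed library was left, and the median log2 change was 0.60 and 0.74. The set thus had a larger share of higher calls and a smaller share of lower calls than all genes, and it split by role.

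Origin licensing genes and the cyclins were the highest. In untreated KH2, tetO-Msi1 and tetO-Msi2 cells Ccnd1 was 131, 87.8 and 126, and in the floxed lines 1172 and 858 in C1 and C4 cells, a log2 difference of 3.14 ± 0.21 (edgeR adjusted p = 5.5e-05). Cdc6, the loader of the helicase, was 8.04, 4.76 and 5.73 against 36.1 and 30.9 (2.45 ± 0.22, edgeR adjusted p = 0.00014). Ccne2 was 15.5, 10.1 and 10.4 against 53.2 and 49.9 (2.11 ± 0.19, edgeR adjusted p = 0.00017). In each of these 3 genes the floxed libraries lay wholly above the tet libraries, as they did in 39.1% of all genes. Cdt1 was higher by 1.87 ± 0.20, Ccnd2 by 1.79 ± 0.16, Mcm2 by 1.63 ± 0.21, Ccne1 by 1.39 ± 0.17 and Mcm5 by 1.36 ± 0.18 on the log2 scale. E2f1 (0.68 ± 0.20) and Pcna (0.55 ± 0.14) were higher too, and lost the call without C1 (edgeR adjusted p = 0.082 and 0.068). By group, 5 of 6 licensing genes, 6 of 10 helicase genes and 5 of 5 cyclin and E2F genes were higher and none of the helicase or cyclin genes lower.

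The lower genes included geminin and both ribonucleotide reductase subunits. Gmnn, which binds and inhibits CDT1 (chr13:24843714-24853792), was 126, 97.7 and 110.5 in the tet lines and 38.5 and 38.1 in C1 and C4 cells, a log2 difference of -1.54 ± 0.13 (edgeR adjusted p = 0.00014). Rrm1, the large subunit of ribonucleotide reductase, was 376, 282 and 313 against 157 and 144 (-1.11 ± 0.14, edgeR adjusted p = 0.00059). Both had floxed libraries wholly below the tet libraries, as 39.0% of all genes had. Rfc2 differed by -0.87 ± 0.13, Lig1, the ligase that joins Okazaki fragments, by -0.69 ± 0.13, and Rrm2, the small reductase subunit (chr12:25393106-25399011), by -0.50 ± 0.15, and Rrm2 lost the call without C1, C4 or KH2 (edgeR adjusted p = 0.19, 0.061 and 0.054). The other two lower genes were Pola1 and Rfc1. The genes not called were Mcm10, Cdc45, Gins1, Gins2, Rfc4, Rfc5, Pola2, Prim1, Rpa1 and Uhrf1.

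Mitosis genes and CDK inhibitors were mostly lower in the floxed lines. All 20 mitosis genes passed the test, 19 lower with Ccnb2 at -3.83, Ccnb1 at -3.60 and Cenpf at -3.46, and 1 higher, Mybl2 (0.70), with a list median of -2.88. Of 6 CDK inhibitors 5 were lower, led by Cdkn1c (-2.87) and Cdkn1b (-1.92). Of 35 other replication genes 14 were higher, led by Hells (2.11), and 8 lower, led by Pold4 (-1.50), with a list median of 0.23. Of 20 other G1/S regulators 5 were higher, led by Myc (3.27), and 7 lower, led by Ccna2, cyclin A2 (-2.47), with a list median of -0.13. Neuron, glia and neural stem markers moved with this grouping: the 9 neuron markers summed to 101.6 to 206 in the tet libraries of E12.5 and 249.05 to 321 in the floxed ones, most of it Gap43, while Neurod6 and Tbr1 were at most 0.143 and 0.344 in any library, and the glia markers to 1971 to 2935 and 3056 to 3474. Of 9 neural stem markers 1 was higher and 4 were lower, and Hes5, a target of Notch signalling, had levels of 524 to 829 in the tet libraries of E12.5 and 21.8 to 32.5 in the floxed ones. Their part in the result was not tested. Genetic makeup and treatment series differ between the floxed and tet lines. Counted reads differed as well, at 15.0% to 15.6% of those behind RPKM in the untreated tet libraries and 32.7% and 32.1% in untreated C1 and C4 cells. These differences cannot be told apart.

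The same cells' footprints, reads of mRNA held by ribosomes, were compared with the same grouping. Footprints were expressed as CPM with the 10 most covered genes of each library left out of the total, since these took up most reads in untreated KH2 cells. Of 23 genes with more than 20 footprints in each of the 4 untreated libraries, 15 were higher in both C1 and C4 than in both KH2 and tetO-Msi1, beside 42.5% of all genes, and 3 were lower (Pola2, Rrm1 and Rrm2), beside 33.0%. Ccnd1 had a footprint CPM of 63.0 and 87.4 in KH2 and tetO-Msi1 cells and 657 and 618 in C1 and C4 cells. Rrm1 had 574 and 445 against 375 and 188. Of the 17 genes called in mRNA and covered here, 16 differed in the same direction in footprints. The same agreement was not counted over all genes, so it is not shown to be particular to this set. Gmnn had 52.7 and 29.1 against 29.7 and 13.9, so its libraries overlapped in footprints while its mRNA did not. Pole, read only here, had 45.0 and 22.2 against 27.8 and 13.3, which overlap. The set held 0.268% and 0.208% of these footprints in untreated KH2 and tetO-Msi1 cells and 0.518% and 0.414% in C1 and C4 cells, and the mitosis genes held 0.781% and 0.664% against 0.111% and 0.0931%.

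**Figure D3:**
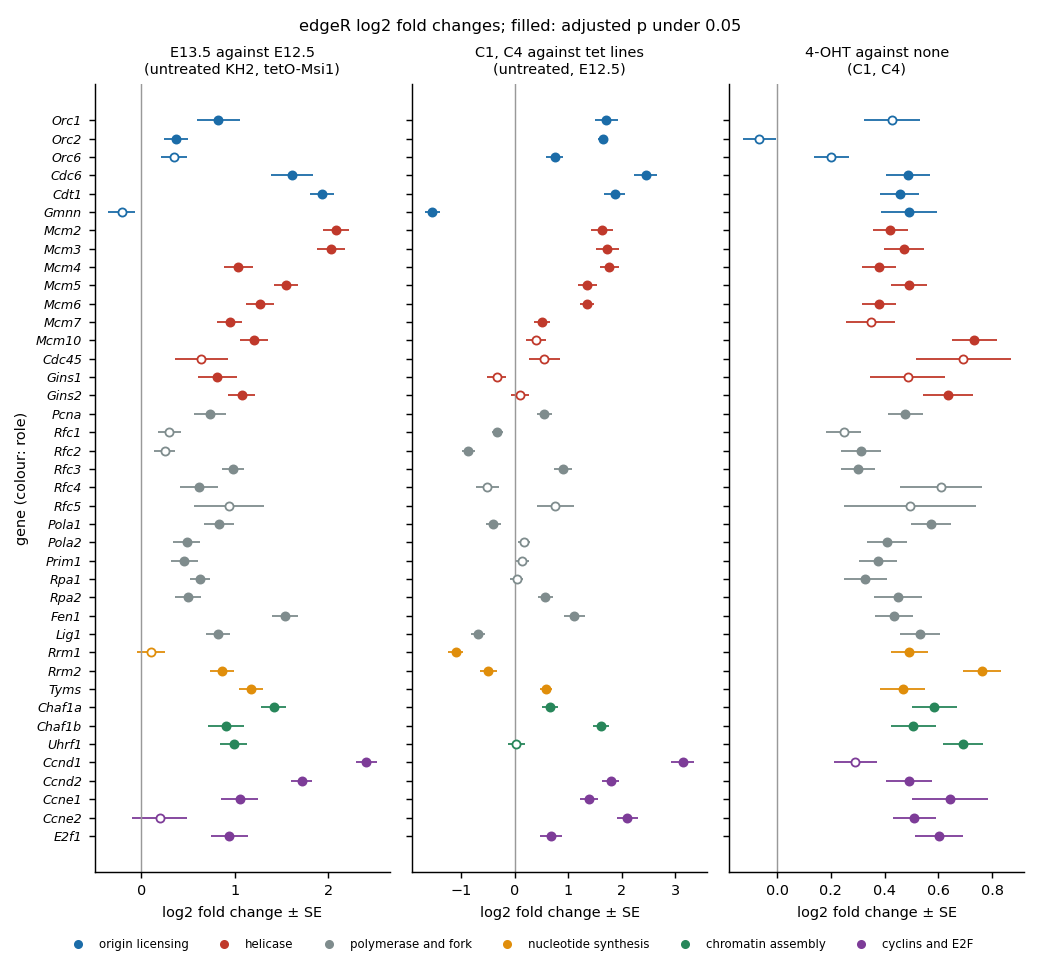
Log2 fold change with its standard error from edgeR for each gene (rows, coloured by role) in 3 comparisons of RNA-Seq libraries, with filled points for an adjusted p under 0.05. Gmnn, Rrm1, Rfc2 and Lig1 lie left of 0 in the middle panel, and 39 of 40 points lie right of 0 in the panel of 4-OHT.

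The third comparison was 4-OHT against no 4-OHT in C1 and C4 cells, with the lines as repeats. Replication and G1/S mRNAs were higher with 4-OHT in both lines, including C1, which has no CreER. In edgeR's quasi-likelihood test with line as a block 30 of 40 genes were higher and 0 lower, where 3.14% of all genes tested were called higher. In the same test 38 of the 40 had an unadjusted p under 0.05, beside 2281 of all 11626 genes. DESeq2 called 29 higher and 0 lower, beside 311 and 203 of all 10048 genes. The median log2 change was 0.48, and 39 of 40 genes had a positive one. The exception was Orc2, a subunit of the origin recognition complex, at -0.07 ± 0.06. The levels of 39 genes in both treated libraries exceeded those in both untreated ones, which 21.4% of all genes did.

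Rrm2 had a level of 143 in untreated C1 and 167 in untreated C4 cells, and 226 and 306 with 4-OHT, a log2 change of 0.76 ± 0.07 (edgeR adjusted p = 0.0033). Mcm10, which helps to activate the loaded helicase, was 29.99 and 28.4 without and 45.3 and 52.2 with 4-OHT (0.73 ± 0.08, edgeR adjusted p = 0.0048). Treated and untreated libraries of both genes did not overlap. Uhrf1, which guides maintenance of DNA methylation behind the fork, was 76.6 and 67.1 without and 113.8 and 118 with 4-OHT (0.69 ± 0.07, edgeR adjusted p = 0.0043). Ccne1, cyclin E1, was 45.3 and 39.9 without and 56.1 and 79.0 with 4-OHT (0.64 ± 0.14, edgeR adjusted p = 0.035). Among the genes called, the next largest change was that of Gins2, a subunit of the GINS complex of the active helicase, at 0.64 ± 0.09. E2f1 (0.60), Ccne2 (0.51), Mcm5 (0.49), Cdc6 (0.49), Ccnd2 (0.49), Pcna (0.48), Cdt1 (0.46) and Mcm2 (0.42) also rose on the log2 scale. Ccnd1, at 1172 and 858 without and 1272 and 1191 with 4-OHT, missed the threshold (0.29 ± 0.08, edgeR adjusted p = 0.082).

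The changes were spread over the roles. All 3 nucleotide synthesis genes and all 3 chromatin assembly genes rose, 7 of 10 helicase genes, 10 of 13 polymerase and fork genes, 4 of 5 cyclin and E2F genes, and 3 of 6 licensing genes. Of the wider lists, 14 of 35 other replication genes rose, led by Asf1b and Chtf18 at 0.64, and 6 of 20 other G1/S regulators, led by Ccna2 and E2f8 at 0.80. The mitosis genes rose more, 19 of 20 with a median of 0.86, led by Birc5 (1.11), Plk1 (1.05) and Mki67 (1.03), while edgeR called 0 of 9 neural stem genes, with 3 at an unadjusted p under 0.05. Without the line block edgeR called 0 of the 40 genes, and 0 of all 11626 genes tested. At an unadjusted p under 0.05 that fit had 36 of the 40 and 1124 of all genes. Genes with an E2F match had a median change of 0.47 (9 of 11 called) and those without 0.48 (15 of 21 called). Calls are counted here in either direction, and of all genes 639 of 11626 were called. In the comparison of stages the medians were 0.99 (11 of 11 called) and 0.73 (16 of 21), beside 6039 of all 11893 genes. Between floxed and tet lines they were 1.35 (10 of 11) and 0.57 (14 of 21), beside 8093 of all 12211 genes. There Lig1 and Pola1, which have a match, were called lower. The differences between genes with and without a match were not tested.

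Neuron and glia markers were compared with and without 4-OHT as well, and edgeR called few of them. The neuron markers summed to 289.8 and 321 without and to 288 and 249.05 with 4-OHT in C1 and C4 cells, with 0 of 6 called by edgeR and 1 at an unadjusted p under 0.05. Their share of footprints went from 0.0638% to 0.0398% in C1 and from 0.0631% to 0.0350% in C4 cells. The glia markers summed to 3257 and 3056 without and 3474 and 3410 with 4-OHT, with 1 of 8 higher (Olig1) and 1 lower (Aqp4). In C4 cells Gfap went from 473 to 247 and Aqp4 from 199.8 to 118, and in C1 cells from 184 to 173 and from 152 to 124.5. Their part in the result was not tested.

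Within single lines the size differed. Taking each treated library against its untreated one, as log2 of RPKM plus 0.5, less the median of all genes, C1 had a median change of 0.35 and C4 of 0.56. Past 1.5-fold, 2 genes were higher in C1 (Rrm2 and Gins1), beside 0.74% of all genes, and 15 in C4, beside 3.0%. The change was larger in C4 than in C1 for 37 of the 40 genes, against 50.2% of all genes, with a median difference of 0.18 and counting intervals above 0 for 27 and below 0 for 1 (Gins1). Ccne1 differed most, at 0.95 (95% counting interval 0.86 to 1.05) in C4 and 0.29 in C1. Next in C4 were Rrm2 (0.86), Mcm10 (0.84) and Cdc45 (0.84). Orc2 was at -0.09 in C4 and -0.04 in C1. The difference between the lines was not tested across cultures, since each line had 1 library per treatment.

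**Figure D4:**
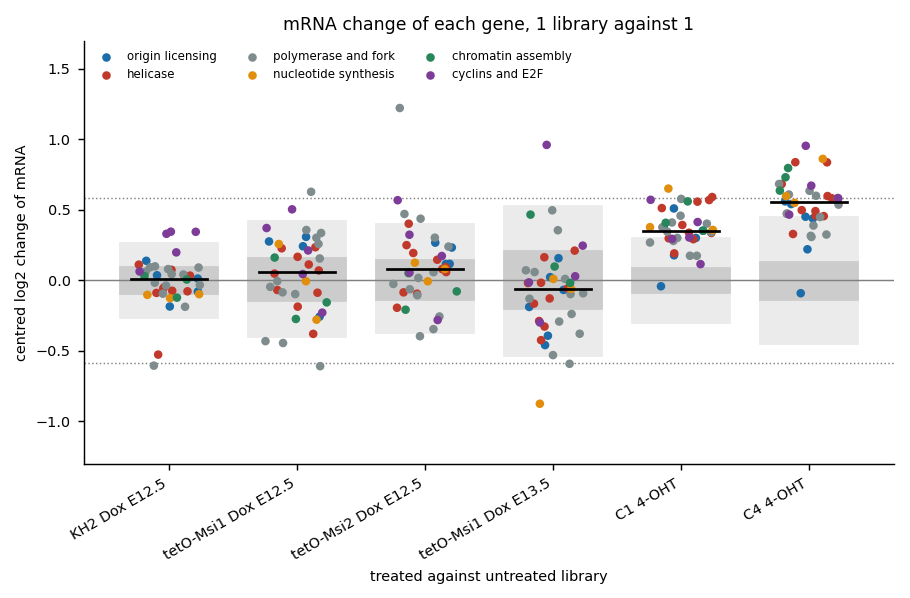
Centred log2 change of mRNA of each gene (points, coloured by role, black bar for their median) for each treated library against its untreated one. Grey boxes hold the middle 50% (dark) and 90% (light) of all genes and dotted lines mark 1.5-fold, and the points of both 4-OHT pairs lie nearly all above 0.

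Dox was compared next, first in tetO-Msi1 cells with both stages as repeats. Induced Msi1 came with few differences in this set. In edgeR's quasi-likelihood test with stage as a block, 3 of 40 genes were called, 2 higher and 1 lower, beside 3.6% of all genes, and the median log2 change was -0.06. Ccnd2 rose by 0.74 ± 0.16 on the log2 scale (edgeR adjusted p = 0.00031), from 107.7 to 152 at E12.5 and from 346 to 678 at E13.5. Rpa2, a subunit of the protein that coats single-stranded DNA, rose by 0.55 ± 0.17 (edgeR adjusted p = 0.035), from 50.5 to 78.7 and from 84.4 to 117. Tyms, thymidylate synthase, fell by 0.65 ± 0.18 (edgeR adjusted p = 0.013), from 31.1 to 24.7 and from 76.3 to 41.2. All 3 moved the same way at both stages. Ccnd2 also rose in KH2 cells with Dox, from 143 to 183, although these carry no Msi cDNA. With the KH2 response subtracted, Ccnd2 changed by 0.36, Rpa2 by 0.40 and Tyms by -0.48, each with an edgeR adjusted p of 0.96. That fit called 0 of the 40 genes, with 2 at an unadjusted p under 0.05. Of all 12215 genes it called 1, with 586 at an unadjusted p under 0.05. Without the stage block edgeR called 0 of the 40 and 0 of all 11938 genes. At an unadjusted p under 0.05 it had 0 of the 40 and 58 of all genes. DESeq2 called Ccnd2 alone, beside 104 of all 11243 genes.

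The other G1/S genes were not called in tetO-Msi1 cells. Ccnd1 changed by 0.01 ± 0.16, Ccne1 by -0.17 ± 0.19, Ccne2 by 0.17 ± 0.21, E2f1 by 0.07 ± 0.19, Cdc6 by -0.15 ± 0.21 and Cdt1 by -0.12 ± 0.17 on the log2 scale. Mcm2 (0.22 ± 0.16), Mcm5 (-0.17 ± 0.16) and Pcna (0.32 ± 0.16) were not called either. Of the wider lists, Cdk6 (1.31) and Mycn (0.54) rose among the other G1/S regulators and Cenpe fell by 0.49 among the mitosis genes, and no other replication gene or CDK inhibitor was called.

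Across the 3 tet lines of E12.5, with line as a block, edgeR called only Ccnd2, beside 0.451% of all genes. Its level went from 143 to 183 in KH2, from 107.7 to 152 in tetO-Msi1 and from 157 to 234 in tetO-Msi2 cells, a log2 change of 0.48 ± 0.08 (edgeR adjusted p = 0.021). It was higher with Dox in all 3 lines. Without tetO-Msi2 or without the line block 0 of the 40 genes were called, with 6 and 3 at an unadjusted p under 0.05. Without tetO-Msi2, 24 of all 11836 genes were called, with 831 at an unadjusted p under 0.05. Without the line block these were 0 and 337 of 11969. Without KH2 5 genes were called, Ccnd2 (0.54), Rpa2 (0.55), Pcna (0.39) and Rpa1 (0.33) higher and Lig1 lower (-0.42). That fit called 510 of all 11838 genes.

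Line by line, few genes passed 1.5-fold with Dox. In KH2 cells 1 of 39 did (0.974% of all genes), Rfc4 at -0.60. At E12.5, 2 of 38 did in tetO-Msi1 cells (3.39% of all genes), Rpa2 at 0.63 and Rfc4 at -0.61. In tetO-Msi2 cells it was 1 of 38 (3.02% of all genes), Rfc5 at 1.22, with 9 reads without and 29 with Dox and a counting interval of 0.14 to 2.30. At E13.5, 3 of 40 did in tetO-Msi1 cells (7.49% of all genes), Ccnd2 at 0.96 (0.93 to 0.99), Tyms at -0.87 (-0.97 to -0.78) and Rfc4 at -0.59 (-0.79 to -0.40). Rfc4, a clamp loader subunit counted over a short length, was therefore lower with Dox in KH2 cells as well as in both tetO-Msi1 pairs, by similar amounts. At E12.5, Orc1 in all 3 lines and Cdc6 in both Msi lines fell under the minimum mean RPKM of 1 and were left out of these counts.

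Translation efficiency (TE) was taken as footprint RPKM over mRNA RPKM for genes with more than 20 reads in each library used. Without treatment, the set's median log2 TE was above that of all genes by 0.35 in KH2 (22 genes), 0.53 in tetO-Msi1 (28), 0.36 in C1 (39) and 0.09 in C4 cells (36). The helicase genes had medians of 0.52, 0.74, 0.44 and 0.16 above all genes in the same order. Pcna was the highest or second highest in all 4 lines, at 1.80, 1.71, 2.27 and 1.71. Rfc4 (1.94 in C1, 1.97 in C4) and Mcm7 (1.06 in tetO-Msi1, 1.48 in C1, 1.38 in C4) were also high, but footprints of Mcm7 were counted over 181 nt and its mRNA over 674 nt. At the low end were Prim1, the primase, in KH2 (-0.77) and tetO-Msi1 cells (-0.76), Orc2 in C4 (-1.47), and E2f1 in C1 (-2.87) and C4 (-1.03). None of these low genes had footprints and mRNA counted over the same exons. For E2f1 the lengths were 1315 and 619 nt, and it had only 24 footprints in C1 and 25 in C4. Restricted to genes whose footprints and mRNA were counted over the same exons, the KH2 median was 0.01 (7 genes), and with more than 100 reads the C4 median was -0.06 (15 genes).

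TE changed past 1.5-fold with treatment in 2 to 8 of the genes per line, and the set's median change lay between -0.15 and 0.05. In KH2 cells with Dox it was 3 of 21 genes (10.8% of all genes), all lower, with Rfc2 at -0.72 and Lig1 and Mcm10 at -0.67. Dox changed the TE of 2 of 19 genes past the limit in tetO-Msi1 cells (10.9% of all genes). Gmnn rose by 1.03 (0.46 to 1.60, 63 footprints without and 47 with Dox) and Ccnd1 fell by 0.71 (interval -1.29 to -0.14, 189 and 30 footprints). In KH2 cells Ccnd1 changed by 0.52 in the other direction (0.01 to 1.03).

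In C1 cells with 4-OHT, 3 of 36 genes passed 1.5-fold in TE (17.5% of all genes), Ccne1 at 1.42 (0.73 to 2.12), Tyms at 0.69 and Rfc2 at 0.63. In C4 cells it was 8 of 34 (17.7% of all genes), 3 higher, Orc2 at 0.94 (0.55 to 1.33), Rpa2 at 0.73 and Tyms at 0.68, and 5 lower, with Rfc4 at -1.01, Ccne1 at -0.90 (-1.67 to -0.12), Gins1 at -0.82 and Chaf1a at -0.77. Tyms was thus higher in both lines and Ccne1 moved in opposite directions, on 25 to 35 footprints per library. The deposited TE of all genes was 1.46 lower on the log2 scale in C1 cells with 4-OHT before centring, and 0.23 lower in C4. The share of footprints on the set rose from 0.518% to 0.592% in C1 and from 0.414% to 0.536% in C4 cells, alongside its mRNA.

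**Figure D5:**
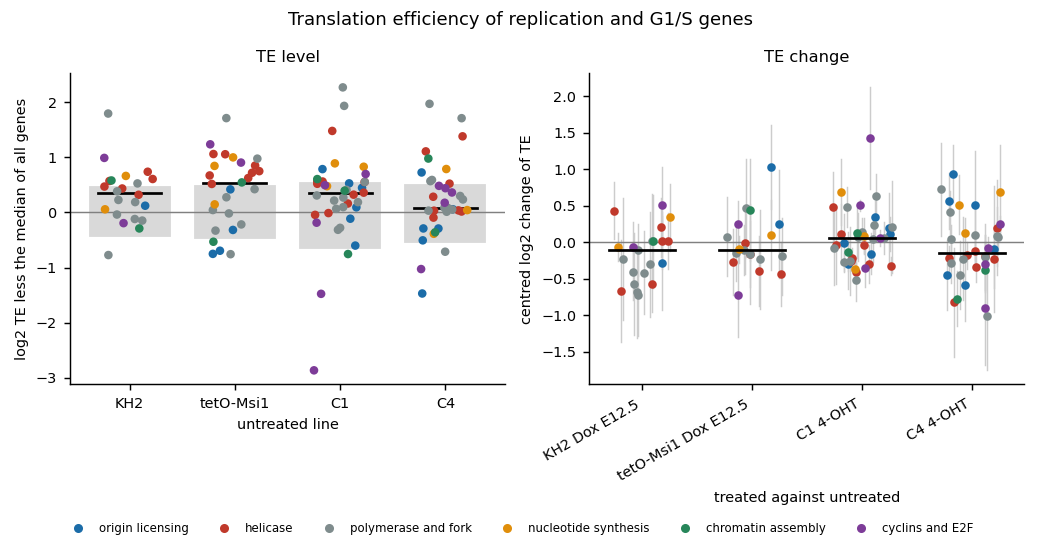
Left, log2 TE of each gene less the median of all genes in 4 untreated lines, with grey boxes for the middle 50% of all genes. Right, centred log2 change of TE with treatment and its 95% counting interval (grey lines), with points coloured by role and black bars for medians, which lie between -0.15 and 0.05.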

How the data were processed

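Mouse cortical NSCs were profiled by poly(A)+ RNA-Seq (14 libraries) and Ribo-Seq (8 libraries), and each sample was placed in its group by its label. Each RNA-Seq file deposited by the authors holds raw read counts of Ensembl genes, a length, and RPKM values computed from them. For Ribo-Seq the authors deposited footprint counts and RPKM over listed coding exons. The submitters' processing notes name TopHat, Bowtie and mm9, with no versions and no roles. Counts came from 7889966 to 58435172 reads per RNA-Seq library and 657288 to 6381242 per Ribo-Seq library, and counting intervals (95%, delta method on log counts) cover counting error only. RNA lengths and footprint exons agreed, less 40 nt per exon, for 49.0% of 20396 genes, so TE levels compare genes only roughly.

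The 5 comparisons of counts used edgeR 4.0.16 (R 4.3.3, limma 3.58.1): TMM, a minimum CPM of 1 in 2 or more libraries, the quasi-likelihood test, Benjamini-Hochberg adjustment over all genes and a threshold of 0.05, with line or stage as a block except between floxed and tet lines. Technical replicates were summed. Pairs of single libraries have no test: log2 changes used RPKM plus 0.5, a mean RPKM of at least 1, centring on all genes and a limit of 1.5-fold, and TE used more than 20 reads in all 4 libraries. Genes were named by a fixed rule: up to 5 each way per edgeR comparison and 4 per pair, the extremes of TE, and Mcm2, Mcm5, Pcna, Cdc6, Cdt1, Ccnd1, Ccnd2, Ccne1, Ccne2 and E2f1 throughout. The members and lists were chosen with earlier results of these data known. The comparison of footprints between lines and the promoter letters were added after values were seen. Other genes named there, and those that missed a threshold, were named after their values were seen. Alternatives were DESeq2 1.42.0, RLE scaling, no filter, no block, leaving out lines or a technical replicate, the KH2 response subtracted, pseudocounts of 0.1 and 2, and other limits on reads and fold. The fits were tested on simulated data. Python 3.11.15, numpy 2.4.6, pandas 2.3.3 and matplotlib 3.10.9 were used. Gene positions are from Ensembl on NCBIM37 (mm9), promoter windows from RefSeq on GRCm38.p6.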

Additional observations from a re-analysis of the deposited data

Results flagged for a closer look

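Some genes moved in opposite directions with Dox between lines or stages, with both counting intervals leaving out 0. These differences were not tested, since each pair is 1 library against 1, and the values are differences of centred log2 changes. Against KH2 cells of E12.5, Orc2 was higher by 0.46 in tetO-Msi1 cells (0.28 against -0.18) and by 0.42 in tetO-Msi2 cells (0.23 against -0.18). Rrm1 was higher by 0.36 in tetO-Msi1 (0.26 against -0.10) and by 0.18 in tetO-Msi2 cells (0.08 against -0.10), and Rrm2 by 0.22 in tetO-Msi2 cells (0.13 against -0.10). Mcm6 was higher in KH2 than in tetO-Msi1 cells by 0.49 (0.11 against -0.38) and than in tetO-Msi2 cells by 0.31 (0.11 against -0.19). Ccnd1 was higher in KH2 than in tetO-Msi1 cells by 0.43 (0.20 against -0.23), and in tetO-Msi2 than in tetO-Msi1 cells by 0.55 (0.32 against -0.23). Between stages of tetO-Msi1 cells, Orc2 was higher at E12.5 by 0.74 (0.28 against -0.46) and Orc6 by 0.70 (0.31 against -0.39), while Uhrf1 was higher at E13.5 by 0.74 (0.47 against -0.27) and Ccnd1 by 0.47 (0.25 against -0.23).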

How the results depend on the processing

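Of 102 recomputed values, 57 stayed within the tolerance used (1.5 times for counts of genes, 0.1 on the log2 scale for TE levels), 44 moved past it and 1 turned its direction. The cause was not tested. For Dox in tetO-Msi1 cells (3 genes called), DESeq2 called 1, and the fits without the stage block and with the KH2 response subtracted called 0. Over all genes those fits called 104 of 11243, 0 of 11938 and 1 of 12215, in that order. For Dox across lines (1 called), no filter on low counts gave 3, no line block 0, and leaving out a line 0 to 5. Over all genes the main fit called 54, and the same alternatives called 437, 0, and 24 to 510. For 4-OHT (30 called), no line block gave 0, and 0 of all 11626 genes tested. The counts at E13.5 (32) and between floxed and tet lines (30) stayed within 1.5 times under the alternatives run. Between floxed and tet lines, 29, 29 and 30 genes were called without KH2, tetO-Msi1 and tetO-Msi2. Over all genes those fits called 7468 of 12093, 7180 of 12068 and 8483 of 12119. Without C1 or C4 a single floxed library was left, and the median log2 change of the set was 0.60 and 0.74, against 0.62 with both.

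For 1.5-fold mRNA changes, a laxer limit gave 5 (KH2), 9 (tetO-Msi1 E12.5), 8 (tetO-Msi2), 12 (tetO-Msi1 E13.5), 25 (C1) and 36 (C4), and the 2-fold limit 0 in each of these but tetO-Msi2. The share of all genes past the laxer limit was not counted. Whether the set exceeded all genes at that limit was therefore not tested. A pseudocount of 2 gave 0 in KH2 and tetO-Msi1 of E12.5 and 1 in C1, and one of 0.1 gave 5 in C1. Without centring it was 2 in tetO-Msi2 and 23 in C4.

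For 1.5-fold TE changes, the deposited values without centring gave 1 in KH2 and 35 in C1, all lower in C1. More than 5 reads gave 7 (KH2), 8 (tetO-Msi1) and 5 (C1), and more than 50 reads 0, 0 and, in C4, 2. The 2-fold limit gave 0 in KH2 and 1 in tetO-Msi1, C1 and C4. The study's limits (3-fold TE, more than 5 reads, little mRNA change) were used without centring and gave 0 in KH2, tetO-Msi1 and C4. In C1 they gave 13 of 35, all lower, a share like that of all genes, of which 3537 of 9179 passed and 3527 were lower. For TE levels less those of all genes, the same exons alone gave 0.00852 in KH2 (0.35 otherwise), and more than 100 reads 0.72 in tetO-Msi1, 0.23 in C1 and -0.0633 in C4 (0.53, 0.36 and 0.09 otherwise), the last a reversal.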
